A study of Mus musculus with 9 samples.

Results

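Ube3a lies in an imprinted interval of mouse chromosome 7, next to genes that are transcribed from the paternal copy. Described here are 7 genes of that interval, namely Ube3a, Snhg14, Snrpn, Ndn, Magel2, Mkrn3 and Peg12. They were picked by gene name from the 54532 genes of the deposited count table, and all 7 were found there once and passed the filter on low counts. They were measured in the hippocampus of 9 mice by sequencing of poly-A-selected RNA. The mice were N4 Ube3a m-/p+ animals, which inherited the mutant tm1Alb allele of Ube3a from the mother and a wild-type allele from the father, after 4 backcross generations onto 129Sv/Ev. Both groups carried this genotype, and no wild-type group is part of the series, so every comparison here is between treatments of mutant mice. On postnatal day 21 each mouse received a single intracerebroventricular injection of 0.5 nmol, with 5 mice given Ant-134 and 4 mice given Scr. Ant-134 is a locked nucleic acid oligonucleotide that binds the microRNA miR-134, and Scr is a scrambled control. All 9 mice went through audiogenic seizure tests on postnatal days 22, 24 and 26, and the brain was removed 24 h after the last of these tests. Each library holds hippocampal RNA of 1 labelled sample, taken here as 1 mouse.

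Imprinted genes are read from only 1 parental copy. Snrpn, Ndn, Magel2, Mkrn3, Peg12 and the long non-coding RNA Snhg14 are expressed from the paternal chromosome. Ube3a encodes a ubiquitin ligase, and in neurons it is expressed from the maternal chromosome, because the paternal Snhg14 transcript runs through Ube3a in the antisense direction and keeps the paternal Ube3a copy silent. Loss of the maternal copy of UBE3A causes Angelman syndrome in humans, and loss of the paternally expressed genes of the same region causes Prader-Willi syndrome. Glia express Ube3a from both copies to a greater extent than neurons do. Counts per gene separate neither the mutant from the wild-type allele nor neurons from glia, so they offer no check of the genotype.

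The libraries held between 28583298 and 41978113 counts on genes. Across 19782 tested genes, edgeR's quasi-likelihood test called 0 genes (0%) between Ant-134 and Scr at an adjusted p below 0.05, and called 14 with no filter on low counts. DESeq2 without a filter called 18. At an unadjusted p below 0.05, the threshold the study used, edgeR called 827 genes, or 4.18% of those tested, and in 1.54% of the tested genes the 2 groups did not overlap. Markers of hippocampal cells were present, with a summed level of 1136 to 1452 CPM (counts scaled to a common library total) over 10 genes. The summed level of 6 microglial markers was 296 to 337 CPM with Ant-134 and 346 to 394 CPM with Scr, so these groups did not overlap (two-sided exact permutation test, p = 0.0159). This p was the smallest among the marker lists and was not corrected for their number. For the other lists the same permutation test gave p values from 0.103 (hippocampus) to 0.968 (astrocytes and thalamus). In bulk tissue, fewer cells of a type and less RNA per cell cannot be told apart. The mice also differed in counts on 4 Y-linked genes, with 5551 to 8061 counts in 6 mice (3 in each group) and 12 to 37 counts in the other 3 (2 given Ant-134 and 1 given Scr). The row of Mir134, the gene of the microRNA that Ant-134 binds, held 0 counts in all 9 libraries, and poly-A selection does not measure mature microRNAs. Its host transcript Mirg held 1035 to 1698 counts.

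No difference between Ant-134 and Scr was detected in any of the 7 genes. At the unadjusted threshold 0 of the 7 were called, beside 4.18% of all tested genes, and in 0 of the 7 were the groups apart, beside 1.54% of all tested genes. The edgeR adjusted p was 0.998 for 6 genes and 1 for Magel2. DESeq2 also called 0 of the 7 at the unadjusted threshold. The precision differed widely between them, and the account below gives for each gene its place, its level in every mouse and the interval of the difference.

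**Figure D1:**
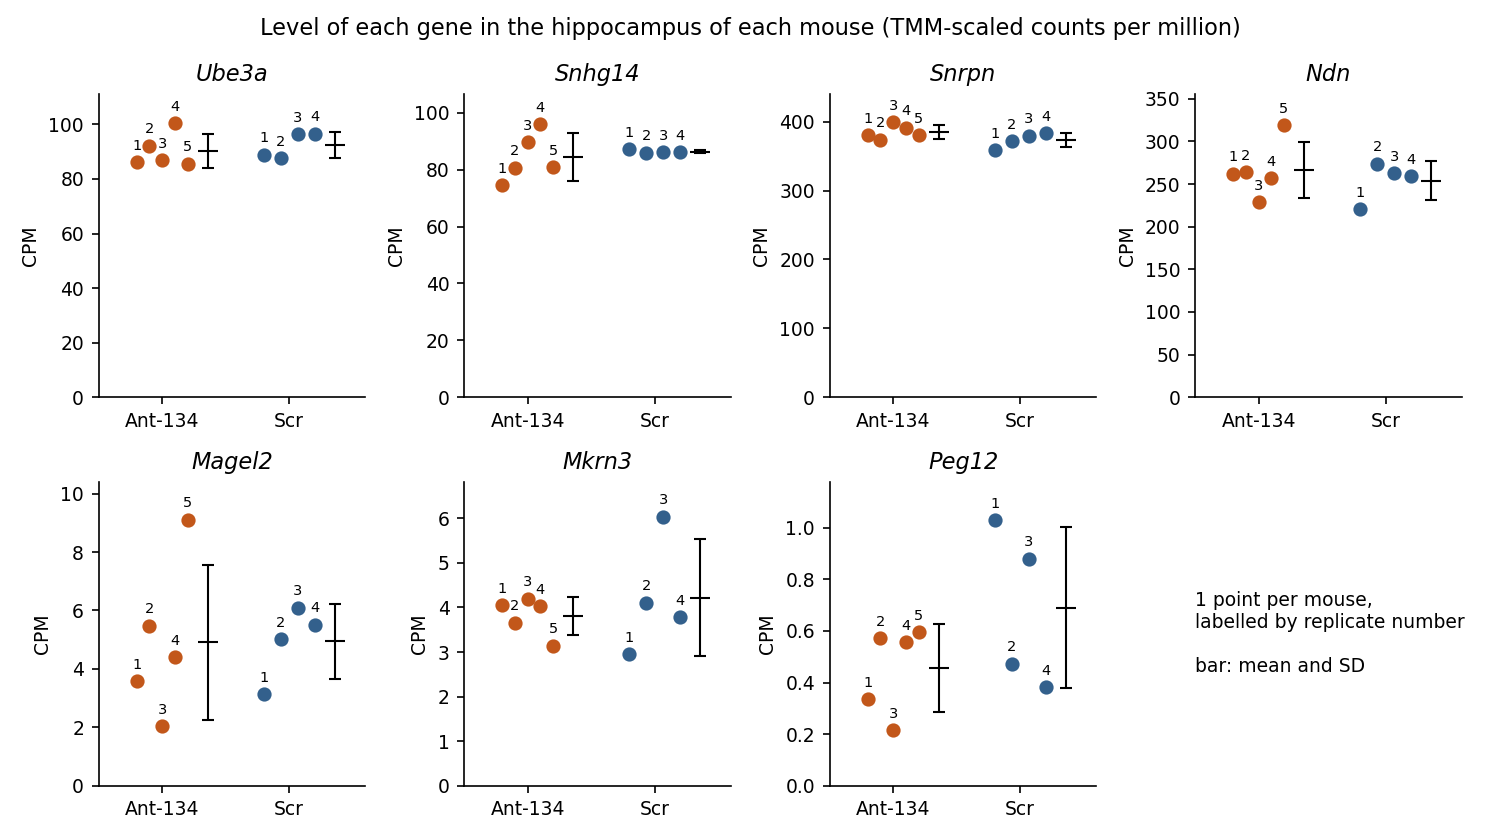
Level of the 7 genes in each mouse, in TMM-scaled CPM (vertical axis, starting at 0, a separate scale for each gene). Orange points are mice given Ant-134 and blue points mice given Scr, numbered by replicate, and black bars give the mean and SD. In each of the 7 genes the groups overlap, and the points of Ube3a and Snrpn lie close together whereas those of Magel2 and Peg12 spread widely.

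To show which transcripts hold a match to the seed of miR-134, the sequences are given first. Mature miR-134 (mmu-miR-134-5p, RefSeq, GRCm38.p6, chr12:109734145-109734166, plus strand) is printed with its seed, bases 2 to 8, in capitals.
mmu-miR-134-5p: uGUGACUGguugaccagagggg
Target sites of this seed were searched as CAGTCAC and AGTCACA on the sense strand of every transcript that GENCODE M21 (GRCm38) gives for the 7 genes. The 2 motifs overlap, and a site with both is an 8-base site. Ube3a has 18 annotated transcripts, and 3 of them hold a site. The first lies in the 3′ UTR of Ube3a-216, a coding transcript of 9 exons that ends at base 59289819, before the last exons of the long coding forms. The other 2 lie in the retained-intron transcripts Ube3a-205 and Ube3a-215. Snhg14 has a single site, in the 1-exon transcript Snhg14-212. Each is shown as 30 bases of the transcript strand with the matching bases in capitals.
Ube3a-216, chr7:59289581-59289588, plus strand: gcttctaacacCAGTCACAaaagtggcaac
Ube3a-205, chr7:59278144-59278151, plus strand: ttgaaaattgtCAGTCACAtattaacaaaa
Ube3a-215, chr7:59282787-59282793, plus strand: gatatccaaagaAGTCACAcaaaatctaaa
Snhg14-212, chr7:59315746-59315752, minus strand: tttaaccccattAGTCACAcaatagagaac
No site was found in the long coding forms Ube3a-201 and Ube3a-203, whose 3′ UTRs span 1797 and 6606 bases, nor in any transcript of Snrpn, Ndn, Magel2, Mkrn3 or Peg12. The 3′ UTR of Ube3a-216 spans 1035 bases. Of 2635 annotated 3′ UTRs between 932 and 1138 bases long, 13.2% hold one of the 7-base motifs and 2.92% hold the 8-base site. A match describes the letters of the transcript and not a site in use. The counts are sums over all transcripts of a gene, so Ube3a-216 cannot be told apart from the forms that lack a site.

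Ube3a (ENSMUSG00000025326, GRCm38 chr7:59228750-59311536, plus strand) encodes the E3 ubiquitin ligase E6AP. Its level was 86.2, 92.2, 86.8, 100.4 and 85.6 CPM in the 5 mice given Ant-134, and 88.9, 87.6, 96.4 and 96.6 CPM in the 4 mice given Scr. The highest and the lowest mouse were both in the Ant-134 group, and the values of the Scr group lay between them. The means were 90.2 ± 6.26 CPM (SD, n = 5) with Ant-134 and 92.4 ± 4.81 CPM (SD, n = 4) with Scr. The log2 fold change of Ant-134 over Scr was -0.034 (SE 0.0539, edgeR adjusted p = 0.998), with a 95% interval from -0.15 to 0.081. On the linear scale this interval runs from -9.81% to 5.81%. A two-sided exact permutation test on log2(CPM + 0.5) over the 126 splits of the mice gave p = 0.563, where the smallest p the design allows is 0.00794. Of the 20626 exon bases of Ube3a, 27.3% are shared with genes on the opposite strand, which are 9330162G02Rik, Gm44560 and Snhg14. Whether the counting used strand is not given in the sources used here, so reads of Ube3a and of these antisense genes cannot be told apart over the 5624 shared bases.

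Snhg14 (ENSMUSG00000100826, chr7:59307924-59975759, minus strand) is the host of snoRNA clusters and the antisense transcript of Ube3a. Its level was 74.6, 80.7, 89.7, 96 and 80.8 CPM with Ant-134, and 87.2, 85.9, 86.2 and 86.1 CPM with Scr. The Scr mice were nearly alike, while the Ant-134 mice lay on both sides of them, with replicate 1 lowest and replicate 4 highest. The means were 84.4 ± 8.44 CPM (SD, n = 5) and 86.4 ± 0.562 CPM (SD, n = 4). Ant-134 over Scr gave a log2 fold change of -0.034 (SE 0.0614, edgeR adjusted p = 0.998), with a 95% interval from -0.17 to 0.10. Leaving out Ant-134 replicate 1 turned this value to 0.0068. Snhg14 shares 7.7% of its 26093 exon bases with other genes, of which 1803 bases lie opposite Ube3a exons.

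Since one transcript runs against the other, their ratio was taken in each mouse. Only 1803 of the 26093 exon bases counted for Snhg14 lie opposite Ube3a exons. The ratio therefore does not measure the antisense RNA over Ube3a itself. Counts of Snhg14 per count of Ube3a were 0.865, 0.875, 1.03, 0.956 and 0.944 with Ant-134, and 0.981, 0.981, 0.894 and 0.891 with Scr. The groups overlapped, and the mean ratios of 0.935 ± 0.0682 (SD, n = 5) and 0.937 ± 0.051 (SD, n = 4) were within the spread of the mice (two-sided exact permutation test, p = 0.952). Across the 9 mice, log2 Ube3a and log2 Snhg14 had a Pearson r of 0.58 (exact permutation p = 0.105, Benjamini-Hochberg p = 0.736 over 21 pairs of the 7 genes) and a Spearman rho of 0.50 (exact permutation p = 0.178, Benjamini-Hochberg p = 0.809). Without Ant-134 replicate 4 and Scr replicate 4, the mice farthest from the median of Ube3a, r was 0.24 (exact permutation p = 0.575). The relation did not pass the test, and its size rested in part on those mice. Both genes were highest in Ant-134 replicate 4.

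The genes whose levels moved most like Ube3a from mouse to mouse were Samd8, Cdh2 and Ikbkg, which encode a sphingolipid enzyme of the endoplasmic reticulum, N-cadherin and a subunit of the kinase complex upstream of NF-kappa-B. Likeness was the Pearson r of log2 CPM deviations from the group mean over 9 mice, among 10615 genes with a mean of at least 10 CPM. It was 0.977 for Samd8, 0.975 for Cdh2 and 0.967 for Ikbkg. These values are the highest of many and are given as a description.

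Snrpn (ENSMUSG00000102252, chr7:59982495-60140219, minus strand) encodes the splicing protein SmN, the form of this core protein that predominates in brain. It was the most abundant of the 7 genes and the least variable. Its level was 380.4, 374, 399, 391 and 380.3 CPM with Ant-134, and 359, 372, 379.6 and 383 CPM with Scr. The lowest mouse was in the Scr group and the 2 highest in the Ant-134 group, and the groups overlapped. The means were 385 ± 9.87 CPM (SD, n = 5) and 374 ± 10.5 CPM (SD, n = 4). The difference on the log2 scale was 0.043 (SE 0.0399, edgeR adjusted p = 0.998), with a 95% interval from -0.042 to 0.13, or from -2.88% to 9.31% on the linear scale. The coefficient of variation over the 9 mice was 2.96%, beside a median of 4.85% among 919 tested genes within 2-fold of its level. For comparison, it was 5.96% for Ube3a, where the median of genes at that level was 5.2%.

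The exons of Snurf, a short coding gene read from the same transcript as Snrpn, lie within those of Snrpn over 216 bases, and Snurf is listed at 0 counts in all 9 libraries. Snrpn shares 589 exon bases, the bases of Snurf included, with Gm38393 on its own strand and 148 with a pseudogene on the opposite strand. In all 34.1% of its 2159 exon bases are shared with another gene. How reads on shared bases were assigned is not given in the sources used here, so the level of Snrpn may leave out reads of these bases. The genes most like Snrpn from mouse to mouse were Lyrm2 with r = 0.95, D6Wsu163e with r = 0.927 and Extl2 with r = 0.925 over 9 mice. Their log2 fold changes were 0.12, 0.077 and 0.073, with unadjusted edgeR p values of 0.191, 0.179 and 0.15.

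Start sites of Snrpn and Ndn share a short sequence. The 8-base palindrome CGCATGCG, which reads the same on both strands and lies within the motif known for the transcription factor NRF1, was chosen for a search after these sequences had been seen. In RefSeq windows from 250 bases before to 50 bases after each start (GRCm38.p6), it was found at all 4 start sites of Snrpn, the most distal of which is also the start of Snhg14, and at that of Ndn. It was not found in the windows of Ube3a, Magel2, Mkrn3 and Peg12. Of 32851 windows of this length, 1.87% hold it. At 3 Snrpn starts and at Ndn the 30 bases around the match, on the strand of the gene and with the match in capitals, read as follows.
Snrpn, chr7:60048031-60048060, minus strand: gcaaacatgcaCGCATGCGtcgttgaaggt
Snrpn, chr7:60140285-60140314, minus strand: gcaaacatccaCGCATGCGtgatgggaggg
Snrpn and Snhg14, chr7:60450222-60450251, minus strand: gcaaacatccaCGCATGCGtgattggaagg
Ndn, chr7:62348243-62348272, plus strand: gcttcccaacaCGCATGCGcaatatcgcat
The 3 Snrpn stretches resemble each other beyond the palindrome. The fourth Snrpn start, where the match lies 36 bases after the start, lacks this shared flank and is not shown. The Ndn stretch lies inside the exon that GENCODE gives for Ndn. No binding was measured here.

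Ndn (ENSMUSG00000033585, chr7:62346569-62350262, plus strand) encodes necdin, a MAGE-family protein of postmitotic neurons. It has a single exon and shares no base with another gene. Its level was 262, 264, 229, 257 and 319 CPM with Ant-134, and 220.5, 274, 263 and 259 CPM with Scr. Ant-134 replicate 5 was highest, and Scr replicate 1 and Ant-134 replicate 3 were lowest, so that both groups held a low mouse. The means were 266 ± 32.7 CPM (SD, n = 5) and 254 ± 23.2 CPM (SD, n = 4), and the log2 fold change was 0.068 (SE 0.0893, edgeR adjusted p = 0.998) with a 95% interval from -0.13 to 0.26. Without Ant-134 replicate 5 the log2 fold change was -0.0045, and without Scr replicate 1 it was 0.0028.

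Magel2 (ENSMUSG00000056972, chr7:62377010-62381640, plus strand) encodes another MAGE protein, a partner of ubiquitin ligases in endosomal recycling that is best known from the hypothalamus. It too is a single exon that shares no base with another gene. Its level was 3.57, 5.48, 2.03, 4.39 and 9.1 CPM with Ant-134, and 3.13, 5.01, 6.1 and 5.51 CPM with Scr. The Ant-134 group held both the highest mouse, replicate 5, and the lowest, replicate 3, which differed 4.49-fold. The means were 4.91 ± 2.66 CPM (SD, n = 5) and 4.94 ± 1.28 CPM (SD, n = 4). The log2 fold change of -0.0066 (SE 0.392, edgeR adjusted p = 1) had a 95% interval from -0.90 to 0.89, so a change within about that range was not detectable with these mice. Leaving out replicate 5 of Ant-134 gave -0.35, and leaving out replicate 3 gave 0.19.

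Of the 21 pairs of the 7 genes, the closest relation from mouse to mouse was that of Ndn and Magel2, which lie next to each other on the same strand. Over the 9 mice Pearson r of log2 levels was 0.87 (exact permutation p = 0.00528, Benjamini-Hochberg p = 0.111 over 21 pairs) and Spearman rho was 0.75 (exact permutation p = 0.0255, Benjamini-Hochberg p = 0.352). Without Ant-134 replicate 5 and Scr replicate 1 r was 0.84 (exact permutation p = 0.0627). It was 0.95 within the 5 Ant-134 mice and 0.88 within the 4 Scr mice, as a description. The relation failed the correction over 21 pairs. The only other pair with an unadjusted p below 0.05 was Snrpn and Peg12, with r = -0.71 (exact permutation p = 0.0299, Benjamini-Hochberg p = 0.314), rho = -0.68 (exact permutation p = 0.0503, Benjamini-Hochberg p = 0.352), and r = -0.031 without Scr replicate 1 and Ant-134 replicate 3 (exact permutation p = 0.952). That second relation rested on those 2 mice.

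The genes most like Ndn were Zcchc12 with r = 0.97, Zfp423 with r = 0.97 and Calb2 with r = 0.969. Zcchc12 encodes a zinc-finger coactivator, Zfp423 a zinc-finger transcription factor, and Calb2 the calcium-binding protein calretinin of interneurons and mossy cells. These genes were picked for their likeness to Ndn over the same mice, so a high level in the mouse highest in Ndn follows from the choice. In Ant-134 replicate 5 Calb2 reached 74.6 CPM, beside 37.4 to 58.4 CPM in the other mice. Zcchc12 reached 73.2 CPM there, beside 34.8 to 54.6 CPM. The same mouse was highest in the summed level of 10 hypothalamic markers, at 12.4 CPM beside 4.44 to 9.53 CPM in the others. Trh, at 6.85 CPM beside 0.164 to 1.7 CPM, made up most of that sum, and Otp, at 0.43 CPM beside 0 to 0.176 CPM, and Nkx2-1, at 1.39 CPM beside 0.676 to 1.22 CPM, were also highest in this mouse. Over the 9 markers other than Trh this mouse was at 5.56 CPM, the fourth highest of the 9 mice, with Ant-134 replicate 4 at 9.37 CPM and Scr replicate 2 at 9.01 CPM. Of the 10 markers Hcrt, Pmch, Oxt, Ghrh and Otp averaged below 0.5 CPM, Agrp, Pomc, Avp, Trh and Nkx2-1 averaged above it, and none of the 10 was at 0 in all libraries. Ant-134 replicate 3, low in Ndn and Magel2, was highest in the sum of 6 thalamic markers, at 169 CPM beside 109 to 134 CPM. Of the 6, however, Lhx9 was lowest in this mouse, at 10.7 CPM, and Gbx2 was at 0.0356 CPM, beside up to 0.323 CPM in others. It was also highest in the sum of 5 erythrocyte markers, at 403 CPM beside 44 to 116 CPM. Scr replicate 1, also low in Ndn and Magel2, was at 118 CPM in the thalamic sum and lowest in the erythrocyte sum, at 44 CPM. Ant-134 replicate 5, high in Ndn and Magel2, was lowest in the sum of 6 oligodendrocyte markers, at 7252 CPM beside 8532 to 12128 CPM. It was also lowest, narrowly, in the sum of 8 neuronal markers, at 4662 CPM beside 4687 to 5250.0 CPM. Of the neuronal markers Snap25 was lowest in this mouse, at 1144 CPM. Others were lower elsewhere, such as Map2 (985 CPM, beside 910.0 in Ant-134 replicate 1) and Tubb3 (289.8 CPM, beside 257 in Scr replicate 2). The part of these markers in the levels of Ndn and Magel2 was not tested.

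**Figure D2:**
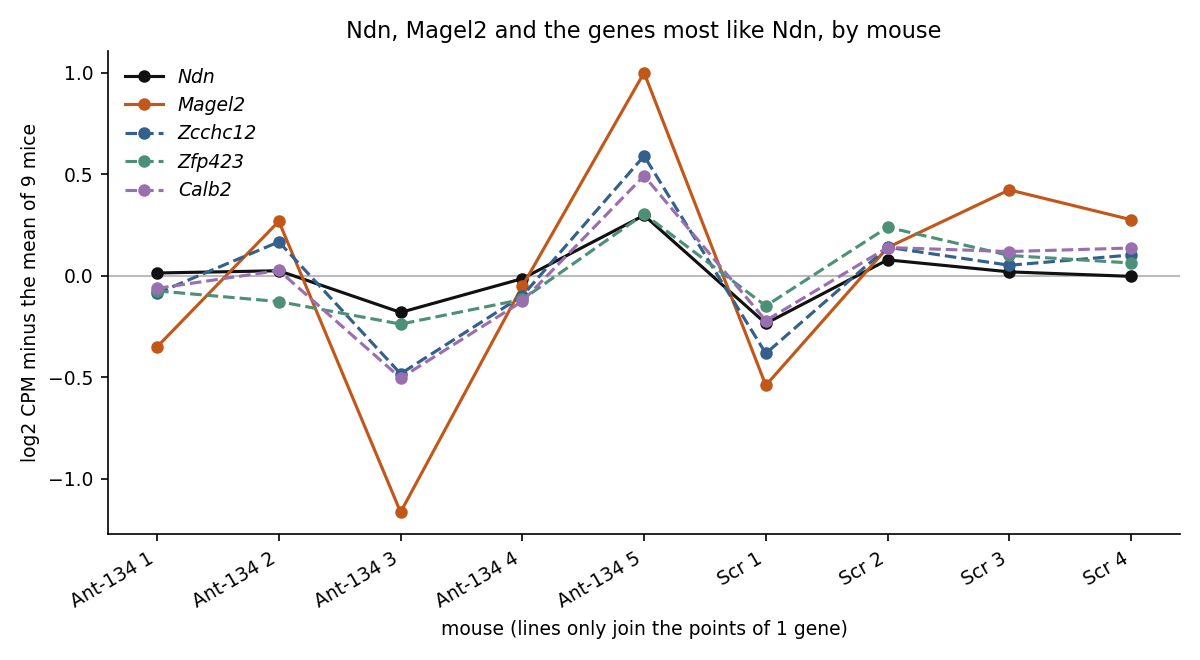
Level of Ndn, Magel2 and the 3 genes most like Ndn in each of the 9 mice, as log2 CPM minus the mean of that gene over the mice. Solid lines are Ndn and Magel2, dashed lines Zcchc12, Zfp423 and Calb2, and lines only join the points of a gene. The dashed genes were picked for their likeness to Ndn in these same mice. All 5 genes are highest in Ant-134 replicate 5, where Ndn was at 319 CPM and Magel2 at 9.1 CPM, and below their mean in Ant-134 replicate 3 and Scr replicate 1.

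Mkrn3 (ENSMUSG00000070527, chr7:62417593-62420139, minus strand) encodes a RING-finger ubiquitin ligase known as a brake on the onset of puberty. Its level was 4.05, 3.66, 4.2, 4.03 and 3.14 CPM with Ant-134, and 2.95, 4.11, 6.04 and 3.78 CPM with Scr. The Scr group held both extremes, with replicate 3 highest and replicate 1 lowest. The means were 3.82 ± 0.425 CPM (SD, n = 5) and 4.22 ± 1.31 CPM (SD, n = 4). The fold change on the log2 scale was -0.15 (SE 0.18, edgeR adjusted p = 0.998), with a 95% interval from -0.53 to 0.24, and without Scr replicate 3 it was 0.076.

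Peg12 (ENSMUSG00000070526, chr7:62461871-62464510, minus strand), also known as Frat3, encodes a relative of the FRAT proteins that bind the kinase GSK3. It was the scarcest of the 7 genes, with 6 to 33 counts per library, which limits its precision. Its level was 0.335, 0.572, 0.214, 0.557 and 0.596 CPM with Ant-134, and 1.03, 0.473, 0.88 and 0.381 CPM with Scr. Scr replicates 1 and 3 lay above every Ant-134 mouse, while Scr replicates 2 and 4 lay among them. The means were 0.455 ± 0.171 CPM (SD, n = 5) and 0.692 ± 0.315 CPM (SD, n = 4). The log2 fold change of -0.58 (SE 0.37, edgeR adjusted p = 0.998) was the largest of the 7 genes in size, with a 95% interval from -1.37 to 0.21. It was -0.33 without Scr replicate 1 and -0.77 without Scr replicate 4, and it passed the unadjusted threshold in neither case. On the FPKM scale with limma it was -0.10 with a pseudocount of 1, which shrinks differences of scarce genes, and -0.38 with a pseudocount of 0.1. A level of 3 counts, taken as the floor, corresponds to 0.0709 to 0.107 CPM, which covers counting error only.

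Levels of different genes were compared per length, as deposited FPKM (fragments scaled to exon length and library total). Snrpn was highest at 174 FPKM over the 9 mice, with 165 to 183 FPKM in single mice, and Ndn followed at 69.9 FPKM, with 59.3 to 85.8 FPKM. Ube3a was at 4.38 FPKM (4.13 to 4.81 FPKM) and Snhg14 at 3.24 FPKM (2.84 to 3.63 FPKM). Mkrn3 was at 1.55 FPKM (1.15 to 2.35 FPKM), Magel2 at 1.05 FPKM (0.434 to 1.95 FPKM) and Peg12 at 0.21 FPKM (0.0801 to 0.389 FPKM). The ranges of neighbours in this order did not overlap, except those of Mkrn3 and Magel2. The widest step was from Ndn to Ube3a, a ratio of 16. The order stayed the same when counts were divided by the length of exon that no other gene shares, where Snrpn came to 267, Ube3a to 6.08 and Snhg14 to 3.54 TMM-scaled CPM per kilobase. Ube3a exceeded Snhg14 by a ratio of 1.35 in FPKM, and the length of Ube3a behind this value covers all 18 annotated transcripts, some of them not coding.

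**Figure D3:**
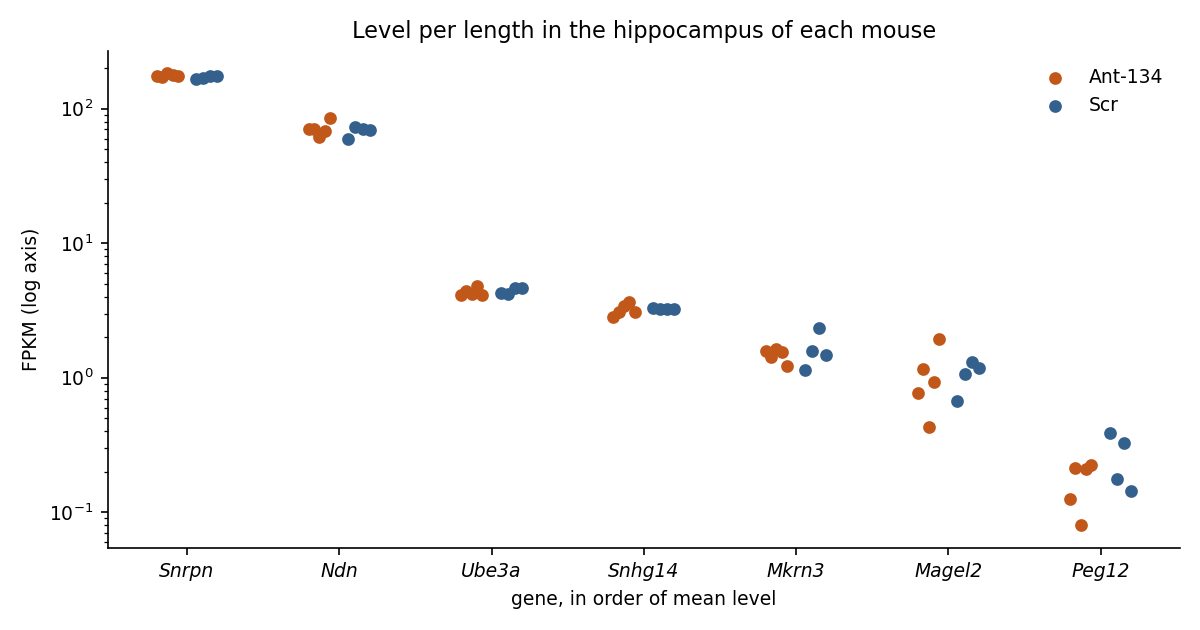
FPKM of the 7 genes in each mouse, on a log axis, with genes ordered by their mean over the 9 mice. Orange points are mice given Ant-134 and blue points mice given Scr. Snrpn (174 FPKM) and Ndn (69.9 FPKM) stand above the other 5 genes, whose means run from 4.38 FPKM for Ube3a to 0.21 FPKM for Peg12, and in every gene the 2 groups overlap.

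The interval from the first base of Ube3a to the last base of Peg12 spans 3236 kb and overlaps 260 other rows of the table, of which 134 had a count in any library and 24 passed the filter. None of the 24 was called at the unadjusted threshold, beside 4.18% of all tested genes (edgeR, smallest unadjusted p = 0.0702, smallest adjusted p = 0.998), and 10 had a positive and 14 a negative log2 fold change. The count was 3 without Scr replicate 4, where 4.84% of all tested genes were called, and 1 without Ant-134 replicate 5 or without Scr replicate 2, where 3.97% and 4.09% were. The median log2 fold change of the 24 was -0.049, beside 0.0026 over all tested genes. Of the 24, 20 had a mean of at least 1 CPM. Nearly all are non-coding, and many lie within Ube3a or along Snhg14 and so may hold reads of those transcripts.

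The most abundant of these was 9330162G02Rik, an uncharacterised transcript antisense to the 5′ end of Ube3a, at 55.1 ± 5.44 CPM (SD, n = 5) with Ant-134 and 58.1 ± 6.51 CPM (SD, n = 4) with Scr. Its log2 fold change was -0.077. Within the span of Ube3a, Gm44562 was at 2.3 and 2.93 CPM, Gm44559 at 1.83 and 1.67 CPM, Gm44560 at 1.52 and 1.42 CPM, and Gm44830 at 1.56 and 1.43 CPM, each with Ant-134 first. Their log2 fold changes were -0.36, 0.13, 0.10 and 0.11. Along Snhg14, A230103L15Rik had the smallest p of the interval, with levels of 12.5, 10.8, 11.6, 10.7 and 13.1 CPM with Ant-134 and 14.4, 14.3, 15.3 and 10.4 CPM with Scr. Of the Scr mice, 3 lay above every Ant-134 mouse and replicate 4 lay below all of them. Its log2 fold change was -0.21 (SE 0.108, edgeR unadjusted p = 0.0702). Gm44829 had a log2 fold change of -0.052, the snoRNA Gm24966 of 0.028, and Gm44831 of 0.19. Gm38393, which shares exons with Snrpn, was at 14.3 ± 1.7 CPM (SD, n = 5) and 14.7 ± 1.01 CPM (SD, n = 4). It had a log2 fold change of -0.046.

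Between Snrpn and Ndn, 3 long non-coding RNAs were measured at over 9 CPM. A230057D06Rik was at 27.9 ± 2.08 CPM (SD, n = 5) and 30.1 ± 1.84 CPM (SD, n = 4). Its log2 fold change was -0.11 (edgeR unadjusted p = 0.119, adjusted p = 0.998). B230209E15Rik was at 15.7 ± 0.852 and 17.2 ± 1.4 CPM, with a log2 fold change of -0.13 and an unadjusted edgeR p of 0.0941. A330076H08Rik, which spans miRNA genes of the Mir344 family, was at 9.77 ± 1.02 and 9.65 ± 0.703 CPM, with a log2 fold change of 0.019. Of the less abundant rows there, the log2 fold changes were -0.15 for A230006K03Rik, -0.14 for Gm9801, -0.072 for Gm38451 and 0.23 for Gm44644. They were 0.0054, 0.10 and -0.21 for the processed pseudogenes Gm7367, Gm10297 and Gm3257, whose reads may belong to their parent genes.

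**Figure D4:**
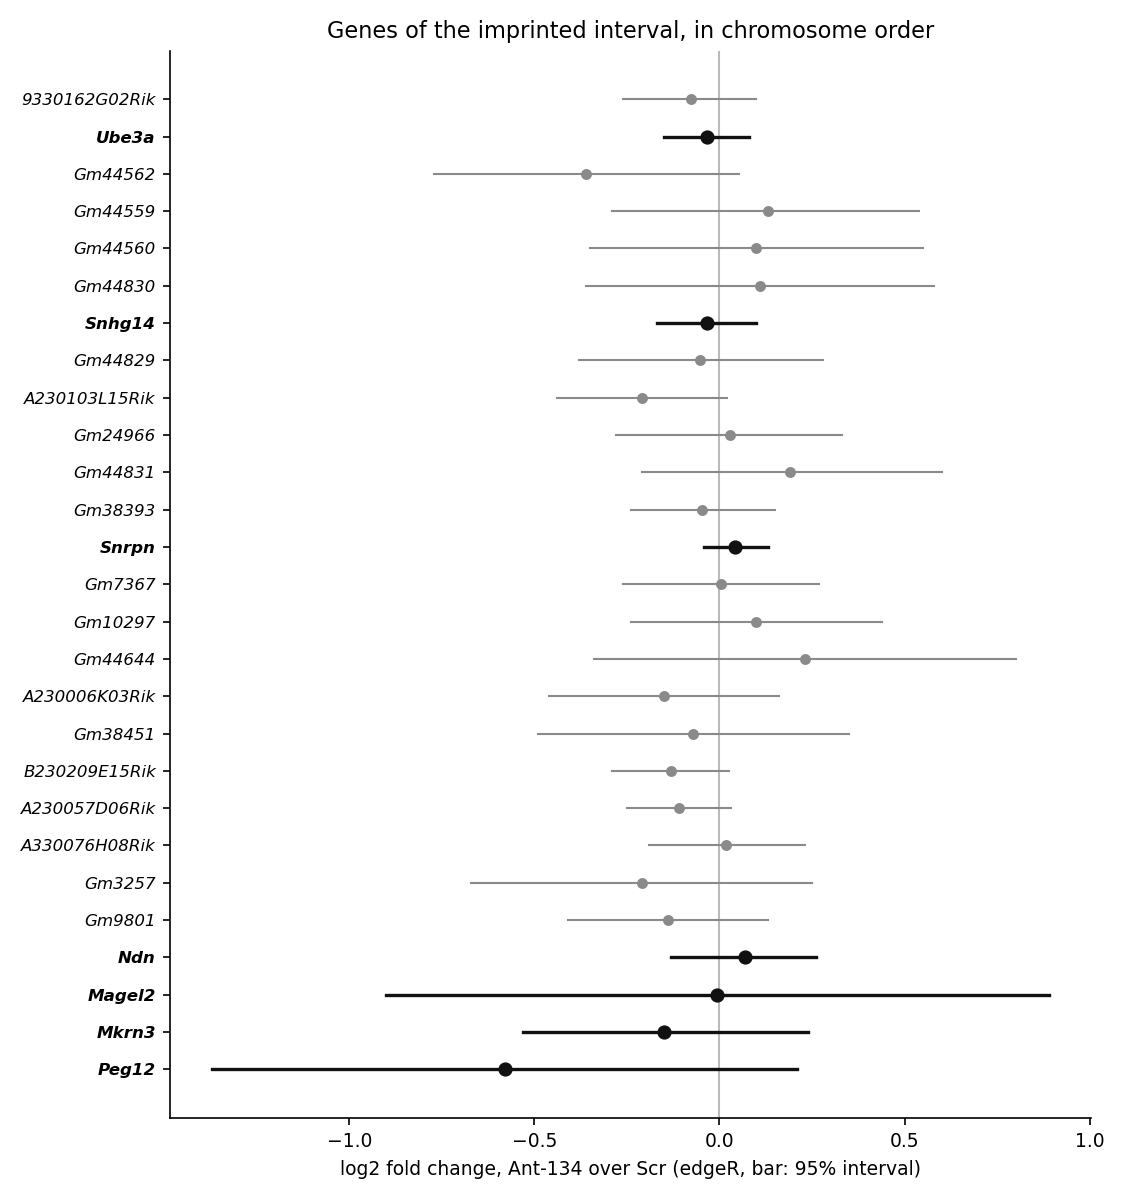
Log2 fold change of Ant-134 over Scr (horizontal axis) with its 95% interval from edgeR for the 7 genes (black, bold names) and the 20 other genes of the interval with a mean of at least 1 CPM (grey), in chromosome order from top to bottom. Every interval includes 0, those of Ube3a, Snhg14 and Snrpn are the narrowest of the 7 genes, and those of Magel2 and Peg12 are the widest.

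Beyond the interval, on the side of Ube3a, lie genes that are expressed from both copies in most tissues. All 10 of a list of these were tested, and 0 were called at the unadjusted threshold, beside 4.18% of all tested genes (edgeR, smallest unadjusted p = 0.102, smallest adjusted p = 0.998), or 1 without Ant-134 replicate 5, beside 3.97%. Their median log2 fold change was 0.02. Among those with the smallest p values were Gabra5, a subunit of the GABA-A receptor, and Tubgcp5, a part of the gamma-tubulin complex. Gabra5 was at 149 ± 7.91 CPM (SD, n = 5) with Ant-134 and 141 ± 5.55 CPM (SD, n = 4) with Scr, and its log2 fold change was 0.082. Tubgcp5 was at 35.4 ± 2.3 and 36.2 ± 0.882 CPM, with a log2 fold change of -0.031.

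Of 40 imprinted genes elsewhere in the genome, 38 were tested and 1 was called at the unadjusted threshold, beside 4.18% of all tested genes. DESeq2 without a filter called 2, beside 2.74% of its genes. Leaving out a mouse gave 2 for Ant-134 replicate 5, beside 3.97% of all tested genes, and 3 for each of Scr replicate 1, Scr replicate 2 and Ant-134 replicate 3, beside 3.79%, 4.09% and 4.24%. The median log2 fold change of the 38 was 0.0027, with 19 positive and 19 negative. The gene called with all mice was Igf2, a growth factor that the choroid plexus and meninges express strongly. Its level was 1.77, 1.22, 1.14, 0.819 and 1.36 CPM with Ant-134 and 1.66, 3.14, 2.64 and 1.76 CPM with Scr. The groups overlapped through Ant-134 replicate 1 and Scr replicates 1 and 4. The log2 fold change was -0.87 (SE 0.243, edgeR unadjusted p = 0.00285, adjusted p = 0.987). The summed level of 6 choroid plexus markers was 68 to 2578 CPM with Ant-134 and 79.8 to 2032 CPM with Scr, and its part in the level of Igf2 was not tested. Sgce, the epsilon-sarcoglycan gene, was at 23.4 ± 1.44 and 21.2 ± 1.44 CPM (edgeR unadjusted p = 0.0541, adjusted p = 0.998). Dcn, which encodes decorin of the meninges and vessels, was at 42.6 ± 10.6 and 55.1 ± 8.08 CPM (edgeR unadjusted p = 0.119, adjusted p = 0.998).

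Ube3a acts by attaching ubiquitin to other proteins, so its partners and reported substrates were also read, at the level of RNA only. Of 13 partners and genes of the ubiquitin pathway, 0 were called at the unadjusted threshold, beside 4.18% of all tested genes (edgeR, smallest unadjusted p = 0.105, smallest adjusted p = 0.998), or 1 without Scr replicate 1, beside 3.79%. Their median log2 fold change was 0.0061. The smallest p values were those of Ubb, a polyubiquitin gene, Ube2d1, a ubiquitin-conjugating enzyme, and Mapk6, a kinase that binds Ube3a, with log2 fold changes of -0.10, 0.082 and -0.086. Of 11 reported substrates, 0 were called, beside the same 4.18% (edgeR, smallest unadjusted p = 0.133, smallest adjusted p = 0.998), and their median log2 fold change was 0.0065. The smallest p values were those of Trp53, Cdkn1b and Arc. Trp53, the p53 gene, had a log2 fold change of -0.10, and Cdkn1b, a cell cycle inhibitor, of 0.072. Arc, a gene induced by neuronal activity, was at 122, 108, 104, 107 and 151 CPM with Ant-134 and 104, 115, 68.1 and 111 CPM with Scr. Its groups overlapped, with Scr replicate 3 lowest and Ant-134 replicate 5 highest, and its log2 fold change was 0.25 (SE 0.181, edgeR unadjusted p = 0.207). Protein levels were not measured in these data.

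The difference between the groups was recomputed for the 7 genes under other tools, filters and scalings and without each mouse in turn. Ube3a stayed between -0.076 and -0.011 on the log2 scale in all 20 alternatives, and Snrpn between 0.021 and 0.056. Neither changed direction, and in none of the alternatives did any of the 7 genes pass the unadjusted threshold. The smallest unadjusted p over all of these was 0.0575, for Peg12 without Scr replicate 4. Magel2 ranged from -0.37 to 0.28 and took both signs.

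**Figure D5:**
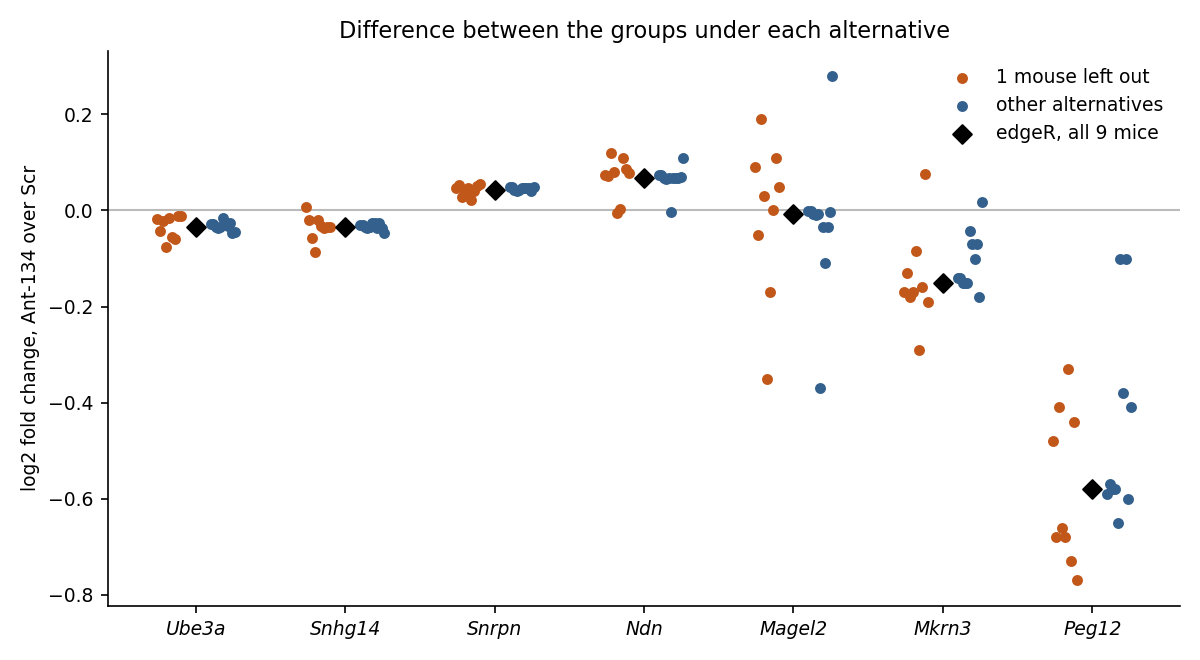
Log2 fold change of Ant-134 over Scr for each of the 7 genes (vertical axis) in edgeR with all 9 mice (black diamonds), with 1 mouse left out (orange points) and under the other alternatives (blue points). Ube3a and Snrpn keep their side of 0 in every alternative, while Magel2 falls on both sides, from -0.37 to 0.28, and Peg12 stays below 0.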

How the data were processed

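Hippocampal RNA of 9 mice was analysed, 5 given Ant-134 and 4 given Scr, grouped by the sample labels. Per the labels and the methods of the study, the authors used CASAVA 1.8 for base calling, aligned reads to mm10 (GRCm38) with HISAT2 2.0.5, counted them per gene with featureCounts 1.5.0-p3, and deposited raw counts. They also deposited FPKM values, which equalled the value computed from the counts times a constant per library between 0.978 and 1.007. The strand setting is not given in the sources used here. All value columns were matched to a sample by name.

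Counts were tested with edgeR 4.0.16 in R 4.3.3 (filterByExpr with a minimum count of 10, TMM scaling, quasi-likelihood test with robust estimation, no covariate), with Benjamini-Hochberg adjustment over 19782 genes. Intervals are 95% intervals from the test's F statistic. Correlations used log2(CPM + 0.5). Alternatives used DESeq2 1.42.0, limma 3.58.1 on FPKM with a pseudocount of 1 or 0.1 on the log2 scale, other filters and scalings, a replicate block and leaving out each mouse. After seeing the data, a covariate for mice with Y-linked counts, those mice alone, lengths of unshared exon and a sum of hypothalamic markers without Trh were added. The members and lists were chosen with earlier results of these data known.

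The genes named are the 7 members, every other gene of the interval with a mean of at least 1 CPM, in each list the genes with an unadjusted p below 0.05 or, where fewer than 3, the 3 with the smallest p, and the 3 genes most like Ube3a, Snrpn and Ndn. A gene within this rule is not reported here. Marker lists covered the hippocampus, neurons, astrocytes, oligodendrocytes, microglia, hypothalamus, thalamus, choroid plexus and erythrocytes. Summed levels over the 9 mice were 4662 to 5250.0 CPM for neurons, 4427 to 5515 CPM for astrocytes and 7252 to 12128 CPM for oligodendrocytes. On simulated data with 200 genes changed by 0.2, 0.5 or 1 on the log2 scale between groups of this size, the unadjusted threshold recovered 36.5%, 99% and 100% of them and the adjusted threshold 0.5%, 67.5% and 100%, with 19787, 19763 and 19765 genes tested. These shares are over the 200 genes together, and recovery of a change in each of the 7 members was not tested. The SE of the log2 fold change was 0.392 for Magel2, 0.37 for Peg12 and 0.18 for Mkrn3. It was 0.0893 for Ndn, 0.0614 for Snhg14, 0.0539 for Ube3a and 0.0399 for Snrpn. The shares therefore cannot be read as the recovery of any 1 member. Libraries of the same group differed by more than sampling noise (chi-square per gene 8.3 to 21.1). The study describes the Scr mice as littermates of the Ant-134 mice, but the labels do not assign mice to litters. Litter was therefore not modelled, and the p values treat the mice as independent. PCR copies cannot be told apart in these counts.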

Additional observations from a re-analysis of the deposited data

Results flagged for a closer look

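Of 56 sets of values examined (the 7 genes, the 20 other genes of the interval and the ratio of Snhg14 to Ube3a, each within Ant-134 and within Scr), 1 held a mouse far from the others of its group, where chance alone flags about 1 in 20. Gm44560, an uncharacterised transcript antisense to Ube3a exons, was at 2.16 CPM in Ant-134 replicate 4, and at 1.22 to 1.43 CPM in the other mice given Ant-134. The gap to the nearest mouse was 0.778 of the range of the group. Ube3a, with which it shares 2025 exon bases, was also highest in that mouse, at 100.4 CPM. Its counts were few, from 37 to 66 per library.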

How the results depend on the processing

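The log2 fold changes of the 7 genes were recomputed 139 times in all, and 127 kept their direction and their side of the threshold. The exceptions were 12 changes of sign, in Snhg14, Ndn, Magel2 and Mkrn3, and no gene passed. Leaving out 1 mouse gave ranges from -0.086 to 0.0068 for Snhg14, from -0.0045 to 0.12 for Ndn, from -0.35 to 0.19 for Magel2 and from -0.29 to 0.076 for Mkrn3, with the sign turned in 1, 1, 6 and 1 of 9 cases. The replicate numbers did not pair the mice, since the deviations of same-numbered mice correlated at -0.115, -0.0701, -0.0221 and 0.012, and 1 of 8 mice correlated best with its own number. With the replicate block, which leaves out Ant-134 replicate 5, Ndn was at -0.0022 and 2 genes of the whole table were called after adjustment. In the mice with Y-linked counts alone (3 against 3), Magel2 was at 0.28 and Mkrn3 at 0.017, and 30 genes were called. The count of 0 genes after adjustment became 14 with no filter, 18 with DESeq2 and no filter and 1 with limma on all genes above 0, and lay between 0 and 17 when 1 mouse was left out, with 17 without Ant-134 replicate 1. The 827 genes at the unadjusted threshold, 4.18% of 19782 tested, became 1775 with no filter, 4.74% of 37454 tested. With limma on all genes they became 1713, or 4.57% of 37454 tested. The number of genes tested grew under both settings, and the share called changed little. The cause of these shifts was not tested.

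All 50 recomputed list medians moved by less than 1 SD of their list, and 40 of 50 recomputed list counts stayed within 1.5 times the count with all mice. The 10 that did not were counts of 1 to 3 genes. The SD was that of single genes in a list, a wide bar for a median, and small medians changed sign in places. Without Scr replicate 2 the median went from 0.02 to -0.01 for the neighbours and from 0.0027 to -0.0042 for imprinted genes elsewhere. It went from 0.0061 to -0.0084 for the partners and from 0.0065 to -0.013 for the substrates. For the other genes of the interval it kept its sign, at -0.061 beside -0.049. All 14 recomputed ranks of level per length stayed the same. Those from TMM-scaled counts per kilobase used the same counts and lengths as FPKM, so they could hardly change. Only the ranks on unshared exon length could differ. Among the 21 correlations, the sign turned without the 2 farthest mice in 7 pairs, at -0.19 (Ube3a and Snrpn), -0.22 (Snhg14 and Peg12), -0.22 (Snrpn and Ndn), -0.0097 (Snrpn and Mkrn3), 0.027 (Ndn and Mkrn3), 0.60 (Ndn and Peg12) and -0.13 (Magel2 and Peg12). On deviations from the group means it turned in 4, at -0.074 (Snrpn and Ndn), 0.041 (Ndn and Mkrn3), 0.083 (Ndn and Peg12) and -0.018 (Magel2 and Mkrn3). None of these pairs passed a test with all 9 mice. Without the 2 farthest mice, Snhg14 and Ndn went from -0.39 to -0.76 (exact permutation p = 0.0389) and Snhg14 and Magel2 from -0.25 to -0.79 (exact permutation p = 0.0371). Peg12 rests on 6 to 33 counts per library.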
